A study of Homo sapiens with 4 samples.

Results

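The genes of steroid hormone synthesis in the adrenal cortex were examined in HEK293 cells, a human embryonic kidney line transformed with adenovirus DNA and widely used to express cloned receptors. The set held 10 genes, chosen by name: STAR, CYP11A1, CYP17A1, CYP21A2, CYP11B1, HSD3B2, FDX1, FDXR, POR and MC2R. Probes were assigned to them through the RefSeq accession in the probe name, which matched 9 of the 10 genes with 3 probes each, 27 of 71998 probes in all. POR, the reductase that passes electrons to microsomal P450 enzymes, had no matched accession and was not analysed here. The 9 measured genes stood among 17217 named genes on the array. All 4 arrays belonged to 1 group of untreated cells grown in serum-containing medium, each with RNA from a separate plate of the same line, so there was no comparison between conditions. The RNA was primed with oligo(dT), labelled with Cy3 and hybridised in a single colour. Nothing in the labels gave the cells a genetic change or an agent. Across the 17217 genes, which are not independent replicates, replicates 1 and 3 correlated at 0.971 and replicates 2 and 4 at 0.977, and the other pairs of arrays at 0.949 to 0.959, so that the arrays fell into 2 pairs that the labels do not describe. Each mean ± SD over 4 arrays spans both.

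The adrenal cortex makes steroid hormones from cholesterol when adrenocorticotropic hormone (ACTH) binds its receptor MC2R, which reaches the cell surface with the accessory protein MRAP and signals through Gs, cyclic AMP and protein kinase A. STAR carries cholesterol to the inner mitochondrial membrane, where CYP11A1 cleaves its side chain to give pregnenolone. HSD3B2, CYP17A1, CYP21A2 and CYP11B1 then complete the route to cortisol. CYP11A1 and CYP11B1 sit in mitochondria and receive electrons from the ferredoxin FDX1 and its reductase FDXR, whereas CYP17A1 and CYP21A2 sit in the endoplasmic reticulum and draw on POR. FDX1, FDXR and POR also serve other enzymes in many tissues, while the remaining members are known for steroid-producing glands. NR5A1, also called steroidogenic factor 1, is the nuclear receptor that controls many of these genes.

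None of the 9 measured genes had a mean signal above the baseline of detection (0 of 9), but the electron carriers FDXR and FDX1 lay at its edge. CYP17A1 varied more between arrays, by the SD of its level, than 99.4% of the genes measured. The remaining 6 genes had mean distances of -3.37 to -2.41, against medians of -3.06 for the seminal control genes and -3.42 for olfactory receptor genes. Following the study, the baseline of an array was the mean plus 2 SD of 10 matched seminal protein genes. The distance of a gene to it is given in log2 units, positive when above. The baseline lay at 9.47, 9.94, 10.69 and 10.32 log2 intensity units on replicates 1 to 4. Low levels also differed between arrays, since the olfactory receptor genes averaged 6.55, 6.45, 7.21 and 7.04 on replicates 1 to 4. Array-by-array levels of members this low, such as CYP11B1 and MC2R, share that difference. A gene was detected when its mean distance over the 4 arrays was above 0, which held for 52.7% of all genes. The one-sided limma test against the baseline, adjusted over all genes, called 45.9% of all genes and 0 of the 9, and at an unadjusted p under 0.05 the number was also 0. No member was above the baseline on all 4 arrays (45.0% of all genes were). On single arrays 1, 1, 0 and 1 of the members lay above it on replicates 1 to 4, against 58.1%, 54.2%, 47.4% and 50.2% of all genes. Each probe has its own affinity, so neither levels nor distances rank the genes by transcript number.

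**Figure D1:**
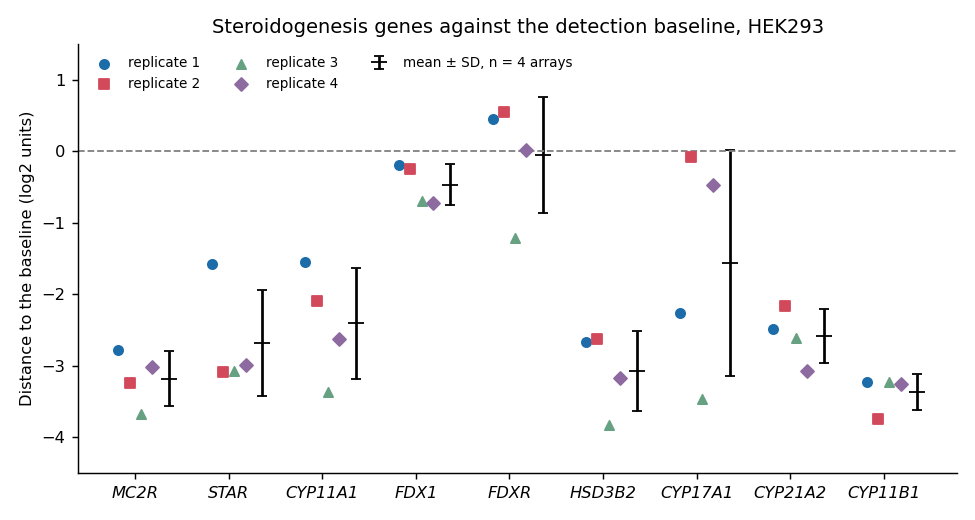
Distance of the 9 measured genes to the array's baseline, in log2 units (dashed line at 0), with 1 point for each of the 4 arrays and bars for the mean ± SD. FDXR lay above the baseline on replicates 1, 2 and 4, no other gene on any array, and CYP17A1 spread from -3.46 to -0.08.

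FDXR, ferredoxin reductase, takes electrons from NADPH and hands them to FDX1. Its level was 9.91, 10.48, 9.47 and 10.34 log2 units on replicates 1 to 4. It lay 0.44, 0.55 and 0.02 above the baseline on replicates 1, 2 and 4, and 1.22 below it on replicate 3 (distance -1.22), the array with the highest baseline and the lowest FDXR level. The mean distance was -0.05 ± 0.81 (SD, n = 4 arrays), and the 95% interval of the limma fit, from -0.74 to 0.64, included 0. Without replicate 3 the mean was 0.34 (limma adjusted p = 0.364), so that the side of the baseline rested on this array. Among the 3 FDXR probes the second and the third averaged 10.34 and 10.53 and each exceeded the baseline on 3 arrays, while the first averaged 7.86 and did so on none.

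FDX1, also called adrenodoxin, is the iron-sulfur protein that carries electrons on to the mitochondrial P450 enzymes. Its level was 9.27, 9.69, 9.99 and 9.59 on replicates 1 to 4, a range of 0.72 log2 units against a median range of 0.94 over all genes. All 4 distances were negative, at -0.20, -0.25, -0.70 and -0.73, with a mean of -0.47 ± 0.29 (SD, n = 4) and a 95% interval from -1.16 to 0.22. The first FDX1 probe exceeded the baseline on 3 arrays and the third on 2, but the second stayed between 7.89 and 9.06. Against the 364 olfactory receptor genes on the array, a family whose transcripts are mainly known from sensory tissue, FDX1 and FDXR each had a higher mean level than 99.7%. The share was 98.4% for CYP17A1, 95.1% for CYP11A1, 93.1% for CYP21A2, 91.8% for STAR, 82.1% for HSD3B2, 76.1% for MC2R and 57.1% for CYP11B1.

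Sequences before the transcription start are shown for these carriers and for both P450 enzymes of early synthesis, because their bases show a difference in CpG content between the carriers and the enzymes. RefSeq starts on GRCh38.p14 were found for 7 of the 9 measured genes, not for STAR and CYP11B1. Each sequence is the 250 bases before the start, read 5′ to 3′ on the strand of the gene, and capitals mark CpG dinucleotides. The windows are chr11:110429698-110429947 (plus strand) for FDX1, chr17:74872995-74873244 (minus strand) for FDXR, chr15:74367647-74367896 (minus strand) for CYP11A1 and chr10:102837414-102837663 (minus strand) for CYP17A1.
FDX1: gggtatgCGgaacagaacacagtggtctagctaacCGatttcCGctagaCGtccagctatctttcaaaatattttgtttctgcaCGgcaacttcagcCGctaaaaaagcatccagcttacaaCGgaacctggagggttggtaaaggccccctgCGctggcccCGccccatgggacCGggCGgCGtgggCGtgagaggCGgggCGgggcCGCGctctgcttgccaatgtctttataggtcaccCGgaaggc
FDXR: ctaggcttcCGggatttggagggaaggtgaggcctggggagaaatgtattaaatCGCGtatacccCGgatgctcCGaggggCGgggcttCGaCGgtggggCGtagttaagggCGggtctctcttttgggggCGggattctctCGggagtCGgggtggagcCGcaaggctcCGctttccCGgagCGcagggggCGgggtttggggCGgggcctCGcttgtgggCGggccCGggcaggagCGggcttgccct
CYP11A1: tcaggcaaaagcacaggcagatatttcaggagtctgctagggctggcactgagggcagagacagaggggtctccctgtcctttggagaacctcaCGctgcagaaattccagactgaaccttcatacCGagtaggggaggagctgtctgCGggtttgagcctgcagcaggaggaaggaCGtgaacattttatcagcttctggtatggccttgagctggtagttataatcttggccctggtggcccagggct
CYP17A1: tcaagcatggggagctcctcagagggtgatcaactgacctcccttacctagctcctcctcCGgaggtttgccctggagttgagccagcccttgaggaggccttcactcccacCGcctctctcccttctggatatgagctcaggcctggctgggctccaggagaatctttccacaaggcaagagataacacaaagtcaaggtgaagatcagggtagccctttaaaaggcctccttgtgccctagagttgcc

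The FDX1 window held 18 CpG dinucleotides and the first of both FDXR windows 23, which gave ratios of observed to expected CpG of 0.85 and 0.90. The ratio was 0.10 for CYP17A1, 0.10 for HSD3B2, 0.22 for CYP11A1 and 0.28 for CYP21A2, and the windows of MC2R gave 0.00 and 0.36. FDXR's other annotated start had a ratio of 0.28. Across 13807 measured genes with such a window, 70.5% of the 9795 genes with a ratio of at least 0.6 were detected and 16.9% of the 4012 genes below it, which is a description across genes and no test of the members. FDX1, and FDXR by its first window, belonged to the class in which detection was common, though neither was itself detected. The other 5 belonged to the class in which it was less common. The letters AAGGNCA, the core that NR5A1 is known to bind, were searched on both strands, and TATAA on the strand of the gene. Only exact matches were counted, so a window without a match may still hold a variant of the site. A TATAA followed by GG can share bases with AAGGNCA, but no matches did so in these windows. AAGGNCA occurred 2 times in CYP11A1 (175 and 47 bases before the start), 2 times in CYP21A2 (235 and 165 bases) and 1 time in HSD3B2 (102 bases), and not in the windows of CYP17A1, FDX1, FDXR or MC2R. Of all 35097 windows 14.8% held it at least 1 time and 1.49% at least 2 times. TATAA occurred in CYP11A1, 29 bases before the start, and in CYP21A2, 30 bases before it, against 13.6% of all windows.

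**Figure D2:**
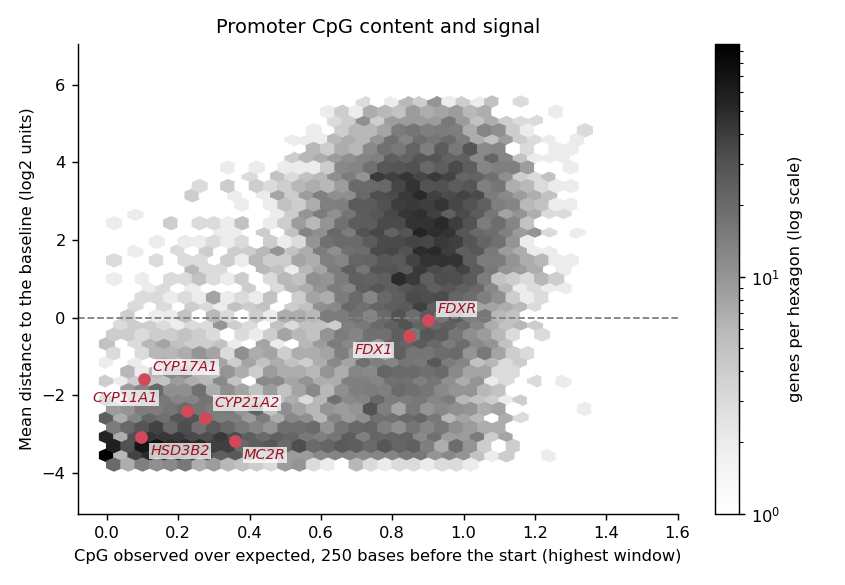
Ratio of observed to expected CpG in the 250 bases before the start (x axis, highest window of a gene) against the mean distance to the baseline in log2 units (y axis), with grey hexagons for 13807 measured genes, darker where there are more genes, and red points for 7 of the steroidogenesis genes. FDX1 and FDXR lie at ratios of 0.85 and 0.90 near the baseline, and the other 5 at 0.36 or less and below it.

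CYP17A1 catalyses the 17α-hydroxylase and 17,20-lyase steps that lead to cortisol and to androgens. Its levels were 7.21, 9.86, 7.23 and 9.85 log2 units on replicates 1 to 4. Replicates 2 and 4 lay close to each other and far above replicates 1 and 3, which also lay close to each other. The range of 2.65 log2 units corresponded to 6.27-fold between the highest and the lowest array and exceeded the range of 98.1% of all genes. All 3 probes shared this order. The third probe measured 8.21 and 7.60 on replicates 1 and 3, and 10.79 and 10.79 on replicates 2 and 4, where it stood above the baseline. The gene as a whole stayed below it, at -0.08 and -0.47 on replicates 2 and 4 and at -2.26 and -3.46 on replicates 1 and 3, with a mean of -1.57 ± 1.58 (SD, n = 4). The RefSeq gene table places CYP17A1 in overlap with CYP17A1-AS1, and which transcript the probes read was not tested.

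**Figure D3:**
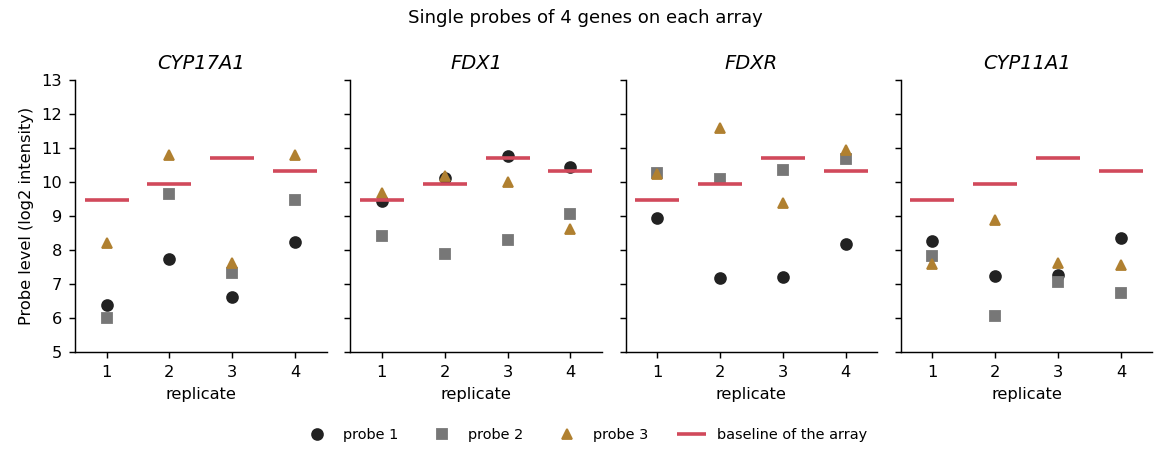
Level of each of the 3 probes (log2 intensity) of CYP17A1, FDX1, FDXR and CYP11A1 on replicates 1 to 4, with red bars for the baseline of each array. All CYP17A1 probes sit higher on replicates 2 and 4, while FDX1 and FDXR each have probes on both sides of the baseline and CYP11A1 has none above it.

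The order of the arrays was shared by FDXR and HSD3B2, which were also higher on both of these arrays, though over ranges of 1.01 and 0.50 log2 units, and was turned in STAR, over 1.05. Across all genes 18.5% had the order of CYP17A1 and 22.2% the opposite order. STS and NEFM, which are outside the set and were chosen after their values were seen, took the opposite order. STS, the steroid sulfatase that frees sulfated steroids, measured 10.35, 6.09, 10.18 and 6.93 on replicates 1 to 4. Its range of 4.26 log2 units was larger than that of 99.8% of all genes, and all of its 3 probes had that order. NEFM, a neurofilament subunit of neurons, measured 13.57, 8.32, 13.09 and 8.08. Of 9 neuronal marker genes, NEFM among them, 5 were lower on both of replicates 2 and 4 and 1 was higher. Their summed log2 level was 99.7, 90.8, 99.6 and 91.5 on replicates 1 to 4. This sum includes NEFM, whose own range was 5.49 log2 units. The part of these markers in the CYP17A1 result was not tested.

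The receptor MC2R was at 6.69, 6.69, 7.01 and 7.30 log2 units on replicates 1 to 4, below the baseline on all arrays, with a mean distance of -3.18 ± 0.38 (SD, n = 4). The other melanocortin receptors on the list, MC1R, MC3R, MC4R and MC5R, lay at -1.62, -3.46, -2.42 and -3.33 and were below the baseline on every array. POMC, the precursor of ACTH, lay at -2.81 ± 0.23 (SD, n = 4). These 5 genes were named after their values were seen.

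The accessory protein of MC2R gave a split result. MRAP had 2 targets on the array, each named by a RefSeq accession of its own. The first target measured 8.35, 8.76, 8.33 and 9.02 on replicates 1 to 4 and lay below the baseline on each, at -1.49 ± 0.59 (SD, n = 4). The second measured 12.27, 12.47, 12.15 and 12.18, with all 3 probes above the baseline on all 4 arrays, at 2.16 ± 0.62 (SD, n = 4). Averaged, MRAP lay at 0.34 ± 0.58 (SD, n = 4, limma adjusted p = 0.342). The RefSeq gene table places MRAP in overlap with URB1, which was not analysed here, and probe sequences were not used, so which transcript the second target read was not tested. The related gene MRAP2 lay at 0.93 ± 0.85 (SD, n = 4, limma adjusted p = 0.00958) and above the baseline on 3 of 4 arrays. The MRAP2 call was lost without replicate 2, at 0.66 (limma adjusted p = 0.142), and with the mean of log2 probe values, at 0.55 (limma adjusted p = 0.138). MRAP2 overlaps CEP162 in the gene table, which lay at 0.97 ± 0.71 (SD, n = 4).

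On a list of 23 genes for melanocortin receptors, their accessory proteins and the cyclic AMP pathway, 15 were detected (65.2%) and the limma test called 14 (60.9%), against 52.7% and 45.9% of all genes. GNAS, which encodes the Gs alpha subunit, lay at 5.03 ± 0.73 above the baseline, the protein kinase A subunits PRKAR1A and PRKACA at 4.20 ± 1.01 and 3.29 ± 0.50, the kinase anchor AKAP1 at 3.15 ± 0.44 and the adenylyl cyclase ADCY6 at 2.29 ± 0.73 (SD, n = 4 for each). The median distance on this list was 0.93, against 0.26 over all genes.

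STAR, the carrier of cholesterol, was at 7.90, 6.85, 7.61 and 7.33 log2 units on replicates 1 to 4. Its mean distance was -2.68 ± 0.74 (SD, n = 4). Replicate 1 stood apart at -1.57, with the others between -3.09 and -2.99. The highest of its 3 probes reached 8.75, below the baseline of every array. A list named for cholesterol supply held 18 genes, of which 15 were detected (83.3%) and 13 called by limma (72.2%). These shares stood against 52.7% and 45.9% of all genes. The median distance was 2.81, against 0.26 over all genes. The mitochondrial channels VDAC1 and VDAC2 lay at 5.35 ± 0.61 and 3.80 ± 0.63, the lysosomal cholesterol exporter NPC1 at 4.11 ± 0.64, the acyl-CoA binding protein DBI at 3.90 ± 0.85 and the mitochondrial ATPase ATAD3A at 3.61 ± 0.34 (SD, n = 4 for each). The 3 genes not detected were LIPE, STARD6 and SOAT2, at -2.11, -3.15 and -3.51.

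CYP11A1, which makes pregnenolone, was at 7.92, 7.85, 7.33 and 7.69 log2 units on replicates 1 to 4, a range of 0.59. Its mean distance was -2.41 ± 0.77 (SD, n = 4). None of its 3 probes exceeded the baseline on any array. CYP11B1, the 11β-hydroxylase that makes cortisol, was at 6.24, 6.19, 7.46 and 7.06 log2 units, with a mean distance of -3.37 ± 0.25 (SD, n = 4). The near copy CYP11B2, which makes aldosterone, lay at -3.02 ± 0.31 (SD, n = 4). Both genes were below the baseline on every array, and whether probes of either read the other was not tested.

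HSD3B2, the adrenal and gonadal 3β-hydroxysteroid dehydrogenase, was at 6.80, 7.30, 6.86 and 7.15 log2 units, the narrowest range of the members (0.50). Its mean distance was -3.08 ± 0.56 (SD, n = 4). HSD3B1, its near copy in placenta and peripheral tissues, lay at -2.01 ± 0.67 (SD, n = 4). CYP21A2, the 21-hydroxylase, was at 6.98, 7.78, 8.08 and 7.24, with a mean distance of -2.58 ± 0.38 (SD, n = 4). CYP21A2 has a near-identical pseudogene and overlaps TNXB in the gene table, and whether its probes also read these was not tested. The 95% interval of the distance ended below 0 for 7 of the 9 members and included 0 for FDX1 and FDXR. It rests on a standard error of 0.351 shared by all genes, which understates the spread of CYP17A1 over these arrays. The same error overstates the spread of FDX1 (SD 0.29), whose distances were negative on all 4 arrays. The median distance of the 9 genes was -2.58 and 8 of them lay below the baseline on all 4 arrays, as did 39.8% of all genes.

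The height of the baseline decided the calls of 3 members. The seminal genes AFG2A (listed by the study under its older name SPATA5) and SPATA13 had higher signals than the remaining 8 controls. Without both of them the mean baseline fell from 10.10 to 7.78 log2 units. Then 3 of the 9 members were detected and called, against 74.0% of all genes detected and 68.6% called. FDX1 then stood at 1.83, 2.02, 1.90 and 1.68 above the baseline on replicates 1 to 4, and FDXR at 2.48, 2.81, 1.38 and 2.42. Limma gave adjusted p-values of 1.78e-08 and 4.66e-10, with distances of 1.86 ± 0.14 and 2.27 ± 0.62 (SD, n = 4 for each). CYP17A1 stood at 2.19 and 1.94 on replicates 2 and 4 but at -0.23 and -0.86 on replicates 1 and 3, with a mean of 0.76 ± 1.53 (SD, n = 4, limma adjusted p = 0.0226) that was within the spread between arrays. With olfactory receptor genes as controls the baseline was 8.02 and the same 3 members were detected (71.4% of all genes), but limma called FDX1 and FDXR and not CYP17A1 (adjusted p = 0.133), against 66.3% of all genes. The mean plus 1 SD gave 2 members detected and 2 called, against 64.3% and 58.9% of all genes, and the median plus 2 scaled median absolute deviations gave 3 and 2, against 67.7% and 62.3%. STAR, CYP11A1, CYP21A2, CYP11B1, HSD3B2 and MC2R had negative mean distances under every alternative run. With both genes left out of the controls, CYP11A1 came nearest, at -0.08 ± 0.54 (SD, n = 4).

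**Figure D4:**
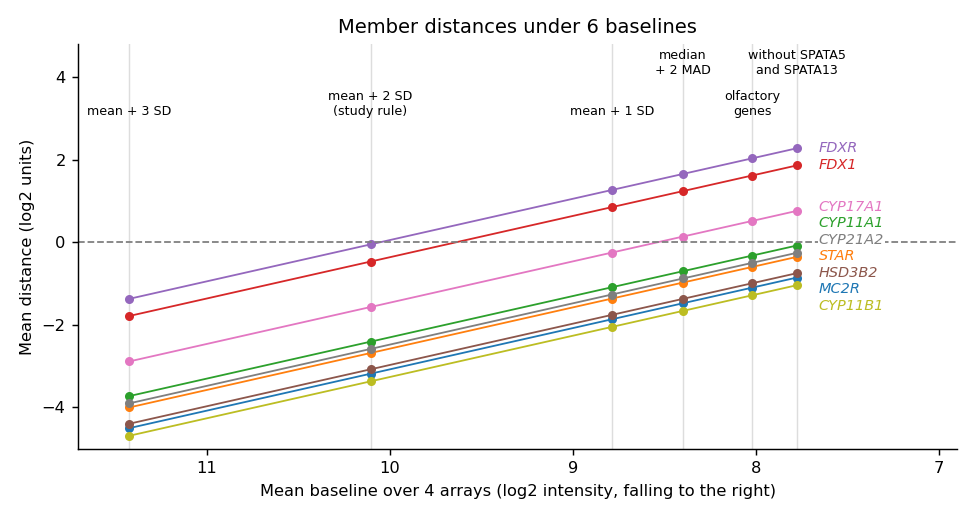
Mean distance of the 9 genes over 4 arrays, in log2 units, under 6 baselines, placed on the x axis by their mean height in log2 intensity, falling to the right. FDXR and FDX1 cross the dashed line at 0 first, CYP17A1 follows at the lower baselines, and the other 6 genes remain below it.

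The partners of the electron carriers were measured on 2 lists. The first held 12 matched genes for mitochondrial P450 enzymes outside steroid synthesis, iron-sulfur cluster assembly and lipoic acid synthesis. Of these 8 were detected (66.7%) and 5 called by limma (41.7%), with a median distance of 0.29. Among all genes the shares were 52.7% and 45.9%, and the median was 0.26. The called genes included ISCU at 3.12 ± 0.82, NFS1 at 3.06 ± 0.41, LYRM4 at 1.83 ± 0.64 and GLRX5 at 1.49 ± 0.66 (SD, n = 4 for each), which serve the assembly of iron-sulfur clusters. With a baseline at 3 SD limma no longer called LYRM4 and GLRX5 (0.52 and 0.18), nor LYRM4 with the median of its probes (0.77, adjusted p = 0.0887). Those not detected were LIPT1 at -0.29, CYP27B1 at -0.40, CYP27A1 at -0.93 and CYP24A1 at -3.26. FDX2, the other mitochondrial ferredoxin, had no matched accession. Of 32 acceptors and partners of POR, 18 were detected (56.3%) and 13 called (40.6%), against 52.7% and 45.9% of all genes, with a median distance of 0.15. PGRMC1, a haem-binding partner of P450 enzymes, lay at 4.72 ± 0.75, the sterol demethylase CYP51A1 at 4.11 ± 0.68, cytochrome b5 (CYB5A) at 4.09 ± 0.63, haem oxygenase HMOX2 at 3.77 ± 0.46 and squalene epoxidase SQLE at 3.71 ± 0.88 (SD, n = 4 for each).

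Of 29 other enzymes that form or convert steroids, 9 were detected (31.0%) and 8 called by limma (27.6%). Among all genes the shares were 52.7% and 45.9%. The median distance was -1.72, against 0.26 over all genes. Of 10 genes of the 17β-hydroxysteroid dehydrogenase family on this list 6 were detected, among them HSD17B10 at 5.35 ± 0.67, HSD17B4 at 4.40 ± 0.76, HSD17B12 at 4.23 ± 0.62 and HSD17B11 at 2.22 ± 0.57 (SD, n = 4 for each). HSD17B1, HSD17B3, HSD17B14 and HSD17B2, named after their values were seen, were not, at -0.45, -2.01, -2.51 and -3.10. HSD17B10, HSD17B4 and HSD17B12 are also known for work outside steroid synthesis, in mitochondria, peroxisomes and fatty acid elongation. PAPSS2, which supplies activated sulfate to sulfotransferases, lay at 1.96 ± 0.77 (SD, n = 4) and was no longer called at 3 SD. Aromatase (CYP19A1), named after its value was seen, lay at -3.14 ± 0.46 (SD, n = 4).

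**Figure D5:**
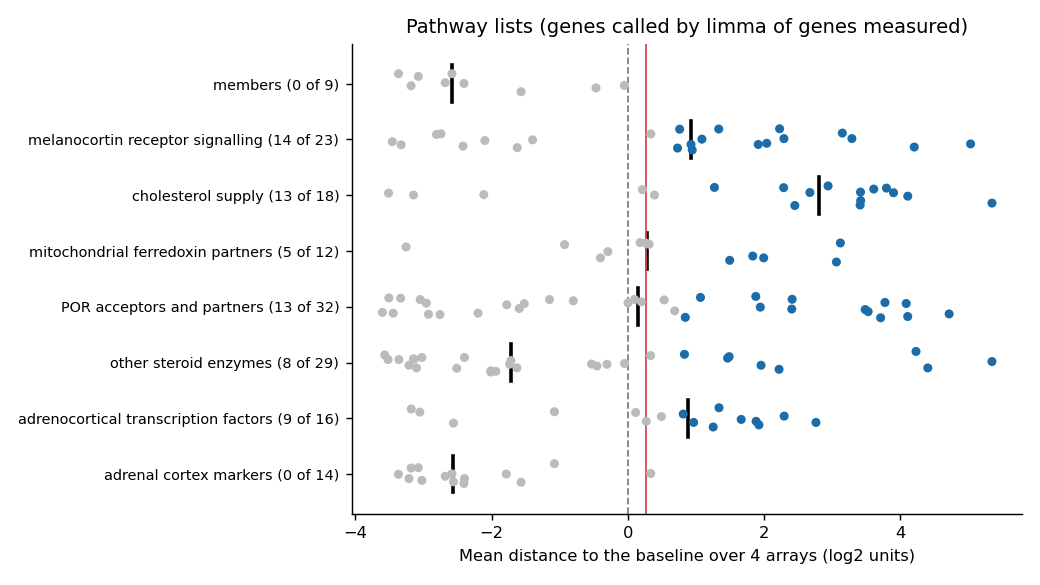
Mean distance to the baseline over 4 arrays, in log2 units, for the genes of 8 lists, in blue where the limma test called them and grey otherwise, with black bars for list medians, a dashed line at the baseline and a red line at the median of all genes (0.26). The members and the adrenal cortex markers, which share genes, hold no called gene, while the cholesterol supply list holds 13 of 18.

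Among 16 transcription factors known from the adrenal cortex, 12 were detected (75.0%) and 9 called (56.3%), with a median distance of 0.89. NR2F2 lay at 2.76 ± 1.01, GATA6 at 1.92 ± 0.93, CITED2 at 1.88 ± 0.86 and CREB1 at 1.66 ± 0.71 (SD, n = 4 for each). These factors act in many tissues. With a baseline at 3 SD limma no longer called GATA6, CITED2 and CREB1, at 0.61, 0.57 and 0.35. NR5A1, the factor most particular to steroid-producing cells, measured 8.71, 9.09, 9.15 and 9.15 log2 units on replicates 1 to 4 and lay below the baseline on all 4, at -1.08 ± 0.35 (SD, n = 4). It crossed every lower baseline, to 1.25 without SPATA5 and SPATA13 (limma adjusted p = 2.54e-05). With 1 SD it lay at 0.24 and was not called (limma adjusted p = 0.372). CYP17A1 stayed below that baseline, at -0.25. The third NR5A1 probe exceeded the study's baseline on 2 arrays and the other probes on none. NR0B1, its partner and repressor, lay at -2.56 ± 1.05 (SD, n = 4). NR4A3 and TCF21, also not detected, lay at -3.05 and -3.18. In all, 77 of 130 matched genes on the pathway lists were detected (59.2%) and 62 were called (47.7%), shares close to the 52.7% and 45.9% of all genes.

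Markers of the tissues the line could resemble were counted by the same rule, on lists chosen with earlier results of these data known. That rule detected 52.7% of all genes, and limma called 45.9%. Of 14 matched adrenal cortex markers, 7 of which are members, 1 was detected (MRAP) and 0 were called by limma. The members' result is therefore part of this count. Their summed log2 level ran from 106.4 to 111.6 over the arrays. Of 9 gonad and placenta markers 0 were detected, of 8 adrenal medulla markers 0, and of 13 kidney markers 1, EYA1, at 0.11 ± 0.67 (SD, n = 4, limma adjusted p = 0.733). By limma these 3 lists held 0 calls. Below the baseline on all 4 arrays were 7 of the 9, 7 of the 8 and 12 of the 13, against 39.8% of all genes. The remaining markers exceeded it on at least 1 array. MRAP and EYA1 were called under each of the 4 lower baselines, and NR5A1 under all of these but the mean plus 1 SD. Of the 9 neuronal markers 6 were detected and 5 called, with NEFL at 4.01 ± 0.56, SYP at 3.09 ± 0.89, INA at 2.41 ± 1.04, NEFH at 1.89 ± 0.86 and TUBB3 at 1.59 ± 0.97 (SD, n = 4 for each), of which NEFH and TUBB3 were no longer called at 3 SD. NEFM, detected but not called, lay at 0.66 ± 3.08 (SD, n = 4, limma adjusted p = 0.0644) and above the baseline on replicates 1 and 3 only. ELAVL4, STMN2 and ELAVL3 lay at -2.91, -3.12 and -3.16. All 20 widely used reference genes were detected.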

How the data were processed

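Total RNA from 4 separate plates of HEK293 cells was hybridised to a NimbleGen array of long oligonucleotides designed on HG18. The authors deposited 1 log2 probe intensity per probe and array, and the submitters' processing notes name RMA without a role. Once sorted, values of the first pair of arrays (replicates 1 and 2) differed by under 0.01 at 99.97% of ranks, of the other pair at 99.99%, and across pairs at 1.23% to 1.25%, as quantile normalization in pairs would give. Raw intensities were not used here, so background and saturation were not examined, and for arrays their number limits the precision.

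Accessions were matched without versions to the RefSeq gene table of GRCh38.p14, used for names and for overlaps between genes. The match named 19125 of 24000 targets, for 17217 genes. Probes were averaged on the linear scale and then log2 transformed to give a target, and targets were averaged to give a gene. The baseline was the mean plus 2 SD of 10 of the 11 seminal genes that the study lists (PYY2 was not matched). The limma test (limma 3.58, R 4.3) was one-sided against 0 on the distances, with Benjamini-Hochberg adjustment at 0.05 over all 17217 genes, and was tested on simulated data. In the main fit its prior degrees of freedom were infinite, so that every gene had a standard error of 0.351. The standard error differed between genes in some alternative fits. It ran from 0.265 to 0.533 without SPATA5 and SPATA13 and from 0.250 to 0.638 with olfactory controls. A shift of a baseline moves all genes of an array together and its own uncertainty did not enter. With 4 arrays, an exact sign-flip test (one-sided) has a smallest p of 0.0625.

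The members and lists were chosen with earlier results of these data known. Named were all members, their partners and near copies, and in each list up to 5 genes that exceeded the baseline on all 4 arrays, taken by mean distance, with every gene of a group of 5 or fewer detected or not detected. Some genes that met this rule are not reported here. No genome coordinates are given apart from those of the promoter windows, taken from RefSeq's table.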

Additional observations from a re-analysis of the deposited data

Results flagged for a closer look

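Arrays that stand apart were sought with Dixon's ratio of gap to range at its limit for 4 samples. It passed in 2 of 73 sets of 4 values, where chance gives about 1 in 20. For STAR, replicate 1 had a distance of -1.57 while the remaining arrays lay between -3.09 and -2.99 (ratio 0.932). For CYP11B1, replicate 2 had a distance of -3.75 while the remaining arrays lay between -3.26 and -3.23 (ratio 0.931). The levels of both genes before the baseline was subtracted did not pass.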

How the results depend on the processing

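No paired analysis was possible because there is 1 group and so no comparison to pair. With the pairs of arrays that shared a distribution (replicates 1 and 2, and 3 and 4) as a random block (correlation 0.339), limma called 0 members and 57 pathway genes. The pairs that correlated most across genes (replicates 1 and 3, and 2 and 4) were not fitted as a block. Counts within 1.5 times of the reported one and values that kept their side of 0 and of the threshold made up 51 of 64 alternative counts and 1000 of 1061 alternative distances of named genes. Of the other distances 12 lost significance, 9 gained it and 40 changed sign.

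The members detected, 0 as reported, were 3 without SPATA5 and SPATA13, 3 with olfactory receptor genes as controls, 3 with the median plus 2 scaled median absolute deviations, 2 with the mean plus 1 SD, 1 with the median of the probes and 0 to 1 with a replicate left out. Those called by limma were 3 without SPATA5 and SPATA13 and 2 with each of olfactory controls, 1 SD and the median rule. Pathway genes detected fell from 77 to 50 with 3 SD, and those called went from 62 to 35 with 3 SD and to 94 without SPATA5 and SPATA13. Of all genes 45.9% were called as reported and 68.6% without SPATA5 and SPATA13. For 3 SD, the block fit, the median of the probes and a replicate left out, the share of all genes is not given here. Those counts are therefore no result about the members or the pathway alone.

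Signs changed as follows. Without SPATA5 and SPATA13 the distances were CYP17A1 0.76, CYP27A1 1.40, CYP27B1 1.92, FDX1 1.86, FDXR 2.27, HSD3B1 0.31, LIPE 0.21, LIPT1 2.03, NR5A1 1.25 and STS 0.61. With olfactory controls they were CYP17A1 0.52, CYP27A1 1.15, CYP27B1 1.68, FDX1 1.62, FDXR 2.03, HSD3B1 0.072, LIPT1 1.79, NR5A1 1.01 and STS 0.37. With 1 SD they were CYP27A1 0.39, CYP27B1 0.91, FDX1 0.85, FDXR 1.27, LIPT1 1.02 and NR5A1 0.24. With the median rule they were CYP17A1 0.14, CYP27A1 0.78, CYP27B1 1.30, FDX1 1.24, FDXR 1.65, LIPT1 1.41 and NR5A1 0.63. With 3 SD they were EYA1 -1.21, MRAP -0.98 and MRAP2 -0.39. The mean of log2 probe values put EYA1 at -0.39, the median of probes FDXR at 0.12, and the highest target LIPT1 at 1.22. With a replicate left out EYA1 ranged from -0.21 (without replicate 1) to 0.28, and FDXR from -0.25 to 0.34 (without replicate 3). A lower baseline raises every distance by construction; for the summaries of probes and targets the cause was not tested.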
